A study of Mus musculus with 40 samples.

Results

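Messenger RNA levels of the proteasome genes were described in 40 hippocampi, each from a different mouse of 12 months and each on its own Illumina Ref-8 expression array. The members were the probes whose platform gene symbol begins with Psma, Psmb, Psmc, Psmd, Psme, Psmf or Psmg and whose detection p-value was at most 0.01 on at least 4 of the 40 arrays. Of 67 such probes on the platform 56 met that minimum, and they measured 41 of 45 proteasome-named genes, among 9385 genes measured in all. Of the 41 genes, 39 encode subunits, activators or assembly factors; Psmc3ip, whose product acts in meiotic recombination, and Psme3ip1, whose product binds an activator, carry the prefix only and are kept apart. Inbred, non-transgenic mice of strains B6, DBA (dba2 in the labels) and SJL were measured with n = 4 of each. Another 28 mice of mixed background had an APP transgene (APP Tg) for the amyloid precursor protein; the labels do not name the promoter that drives it, and none of the 8 groups holds non-transgenic mice of a mixed background. The Tg mice were 6 B6-rich mice (62.5% B6, 37.5% SJL), 6 SJL-richest mice (84% SJL, 16% B6), 6 SJL-rich mice (69% SJL, 31% B6), 3 mice that were 50% DBA (42% SJL, 8% B6) and 7 DBA-rich mice (75% DBA, 9% SJL, 16% B6). Every Tg mouse had a level of amyloid-beta 40 (Abeta40) from its guanidine fraction, the poorly soluble pool, on a log10 scale. That level ran from 4.06 to 5.05 in B6-rich, 4.32 to 5.16 in SJL-richest, 4.62 to 5.49 in SJL-rich, 4.43 to 4.69 in 50% DBA and 3.86 to 4.60 in DBA-rich mice.

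The proteasome is the main protease of the cytosol and nucleus and degrades proteins that carry ubiquitin chains. Its 20S core is a barrel of alpha rings, which gate the entry, around beta rings, which hold the catalytic sites: Psmb6 encodes the caspase-like, Psmb7 the trypsin-like and Psmb5 the chymotrypsin-like subunit. A 19S regulator caps the core: its ATPases (Psmc genes) unfold the substrate and its non-ATPases (most Psmd genes) bind and cut off ubiquitin. Interferon induces Psmb9, Psmb10 and Psmb8, which replace the 3 catalytic subunits in the same order to form the immunoproteasome, and Psme1 and Psme2, which form the PA28 activator; brain tissue is known to make mostly the constitutive form.

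The promoters of the 4 members whose inbred strain means differed by more than 1 log2 unit are shown because the results below turn on these genes. They are RefSeq windows from 250 bases before to 50 after the gene start in build GRCm38.p6, which is a B6 genome, so DBA and SJL letters are not shown. Capitals mark the antioxidant response core TGACNNNGC, searched on both strands, which binds factors such as Nfe2l1, a known activator of proteasome genes. The Psmb6 window is the plus strand of chr11:70525107-70525406, the Psmb5 window the minus strand of chr14:54617946-54618245, the Psmb9 window the minus strand of chr17:34187281-34187580 and the Psmd12 window the plus strand of chr11:107479278-107479577.
Psmb6: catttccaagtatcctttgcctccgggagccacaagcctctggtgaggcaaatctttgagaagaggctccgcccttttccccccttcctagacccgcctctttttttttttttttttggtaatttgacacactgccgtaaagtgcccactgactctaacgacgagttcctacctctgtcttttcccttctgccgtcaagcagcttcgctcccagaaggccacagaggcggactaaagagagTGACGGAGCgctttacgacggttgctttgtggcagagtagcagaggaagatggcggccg
Psmb5: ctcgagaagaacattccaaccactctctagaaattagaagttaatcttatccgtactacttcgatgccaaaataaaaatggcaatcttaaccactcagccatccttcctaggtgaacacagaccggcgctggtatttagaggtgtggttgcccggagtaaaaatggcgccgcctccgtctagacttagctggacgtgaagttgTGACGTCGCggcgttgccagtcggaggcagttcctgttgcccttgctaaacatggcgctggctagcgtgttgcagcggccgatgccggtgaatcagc
Psmb9: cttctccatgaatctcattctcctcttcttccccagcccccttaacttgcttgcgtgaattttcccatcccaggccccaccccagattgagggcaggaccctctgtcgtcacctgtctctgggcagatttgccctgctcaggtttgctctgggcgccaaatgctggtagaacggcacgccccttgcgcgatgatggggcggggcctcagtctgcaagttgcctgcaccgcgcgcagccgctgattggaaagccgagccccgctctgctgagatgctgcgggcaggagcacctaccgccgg
Psmd12: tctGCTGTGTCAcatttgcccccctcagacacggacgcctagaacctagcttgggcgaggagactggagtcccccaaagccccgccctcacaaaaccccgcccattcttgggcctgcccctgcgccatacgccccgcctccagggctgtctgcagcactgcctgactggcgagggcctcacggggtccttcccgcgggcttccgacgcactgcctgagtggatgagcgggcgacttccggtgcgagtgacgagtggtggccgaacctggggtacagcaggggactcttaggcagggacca

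The core stood in the Psmb6 and Psmb5 windows on the gene's own strand, in the Psmd12 window on the opposite strand at the far upstream end, and not in the Psmb9 window. RefSeq gave a window for 35 of the 41 genes: 5 of these (14.3%) held the core, Psmd9 and Psme4 being the others, against 3781 of 27025 genes (14%) over all windows. The interferon-stimulated response core GAAANNGAA, also searched on both strands, stood in 6 of the 35 (17.1%), namely Psmb3, Psmb4, Psmc2, Psmd4, Psmd9 and Psme1, against 2638 of 27025 genes (9.76%). These matches describe letters in the reference window and none of the immunoproteasome genes with a window held either core.

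Each array detected 41.5% to 50.0% of its 25697 probes. The arrays fell into an earlier set (running numbers 1 to 16) and a later set (17 to 40), which did not overlap on the first principal component of the tested probes. B6-rich, SJL-richest and 50% DBA arrays and 1 DBA-rich array were in the earlier set, and all others in the later, so Tg groups were compared only within a set. For 6 of the 12 inbred arrays the deposited tables give different strains: the numbered, non-normalized table is used here, and inbred results are also given for the 6 arrays (2 per strain) whose strain is the same in both tables. With the authors' value table, which differs in these strains and in its scaling, 0 members were called between any 2 strains. Of the neuronal markers 5 of 8 and of the hippocampal field markers 5 of 8 had a tested probe, and the lowest value of any of these on any array was 8.21 (Prox1, log2 normalized signal), so the tissue label was matched by these markers. Choroid plexus markers varied widely within most groups. The summed signal of 6 such markers ran from 5204 to 48241 in B6, 3401 to 50290 in DBA-rich and 18117 to 25619 in 50% DBA mice. Its part in the proteasome values was not tested.

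Most proteasome probes were bright and steady. Of the 56 probes 49 were detected on all 40 arrays, against 9575 of all 13589 tested probes. The median SD within a group of the 56 was 0.11 log2 units, against 0.17 over all tested probes, which were not matched for brightness. Median within-group SD was lowest for the 20S alpha ring (0.07) and the 19S ATPases (0.08) and highest for the immunoproteasome (0.28), with the constitutive beta ring at 0.10 and the 19S non-ATPases at 0.15. The range of the 3 inbred strain means stayed under 0.5 for 52 of 56 members (92.9%), against 86.1% of all probes; the remaining 4, Psmb6, Psmd12, Psmb5 and Psmb9, all exceeded 1. The share with a range under 1 was thus 92.9% of members and 95.3% of all probes.

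**Figure D1:**
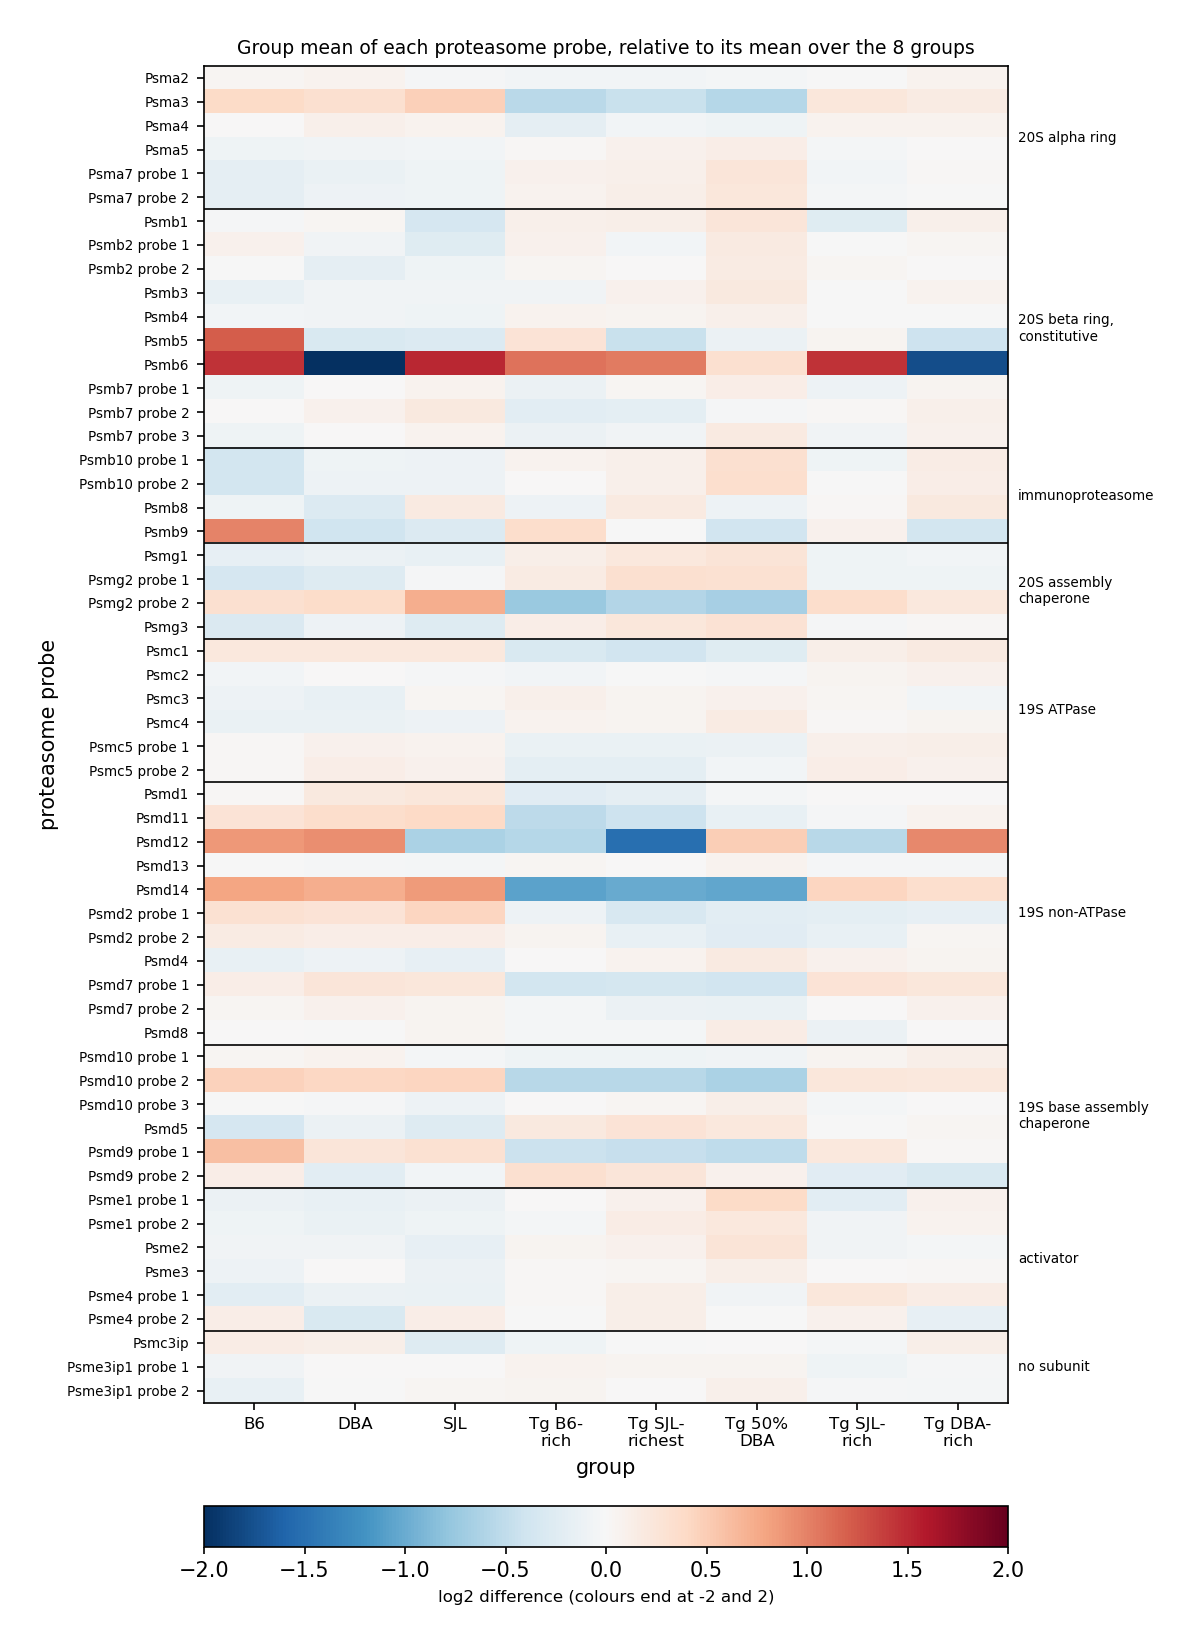
Group means of the 56 proteasome probes, each row a probe and each column 1 of the 8 groups, coloured by the log2 difference from the probe's mean over the groups, with colours ending at -2 and 2. Psmb6 stands out as low in DBA and DBA-rich mice. Psmd12 is lowest in SJL-richest mice and also low in SJL, SJL-rich and B6-rich mice, and most rows of the alpha ring and the 19S ATPases are pale.

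Within each class the brightest and dimmest probes had these ranges of log2 normalized signal over the 40 arrays, which are not comparable between probes. In the alpha ring, Psma2 ranged from 12.89 to 13.24 and the Psma7 probe ILMN_2630328 from 10.92 to 11.44. In the constitutive beta ring, Psmb4, a structural subunit, ranged from 12.98 to 13.35. Psmb5 ranged from 7.71 to 10.11 and Psmb6 from 4.52 to 11.73. The beta ring thus held both a narrow range and the widest one of any member. Among the 19S ATPases, Psmc2 ranged from 12.53 to 12.84 and Psmc1 from 9.78 to 10.72. Among the 19S non-ATPases, Psmd4, a ubiquitin receptor, ranged from 12.54 to 13.02 and the Psmd2 probe ILMN_2682947, detected on 12 arrays, from 4.77 to 5.97. Among the base chaperones, which help to build the 19S base, the Psmd10 probe ILMN_3003308 ranged from 9.55 to 9.95. The Psmd9 probe ILMN_2593662, detected on 13 arrays, ranged from 4.35 to 6.01, near the limit of detection. Among the 20S chaperones, the 2 Psmg2 probes ranged from 9.56 to 10.39 (ILMN_3074516) and from 6.27 to 8.19 (ILMN_3153450). The brightest and dimmest probes of the activators and the immunoproteasome were the Psme1 probe ILMN_2986309 (10.40 to 11.10), the Psme4 probe ILMN_1230087 (4.96 to 5.80, detected on 10 arrays), the Psmb10 probe ILMN_2914843 (10.37 to 11.41) and Psmb9 (4.58 to 6.67, detected on 13 arrays). Just inside the detection minimum stood Psmb8 with 7 arrays, and just outside it the Psmd12 probe ILMN_1216211 with 2. The other 10 probes left out were detected on 0 arrays, and Psma1, Psma6, Psmc6 and Psmd6 had no other probe and are not described.

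The inbred mice carry no transgene, so strain comparisons ask how backgrounds differ without it. The SJL arrays had running numbers 33 to 40, all in 1 run of 8 arrays inferred from that number. B6 (29 to 36) and DBA (31 to 38) were each split over 2 such runs, so strain and run overlap in part in the comparisons with SJL. In DBA mice the single probe for Psmb6, the caspase-like catalytic subunit, read near or below the detection limit, while in B6 and SJL mice it read high. B6 mice stood apart from both other strains by higher Psmb5 and Psmb9, and SJL mice by lower Psmd12, a subunit of the 19S lid. With limma and Benjamini-Hochberg adjustment over all 13589 probes at 0.05, 5 of 56 members differed between DBA and B6 (4 lower and 1 higher in DBA; 8.93%), where 12.3% of all probes did. Between DBA and SJL 7 members differed (4 lower and 3 higher in DBA; 12.5%, against 11.2% of all probes), and between SJL and B6 9 members did (6 lower and 3 higher in SJL; 16.1%, against 13.5% of all). The median log2 change of the 56 members was 0.03, -0.01 and 0.04 in these comparisons, against 0.04, 0.01 and 0.03 over all probes. Each strain enters 2 of the 3 comparisons, so their counts share arrays.

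Psmb6 (ILMN_2895862) read 11.52, 11.73, 11.55 and 11.36 in B6, 11.67, 11.63, 11.57 and 11.57 in SJL, and 5.49, 4.88, 4.94 and 4.84 in DBA (log2 normalized signal). Every DBA array lay far below every array of the other strains, and the probe was detected on 1 of 4 DBA arrays. The fitted log2 change was -6.51 ± 0.13 against B6 (SE, n = 4 each, adjusted p = 1.63e-12, limma) and -6.57 ± 0.13 against SJL (adjusted p = 1.68e-12, limma). As the DBA level has only a bound, Psmb6 was at least 57.0-fold below B6 and at least 59.7-fold below SJL: the bound sets the B6 or SJL mean against DBA values raised, where lower, to the dimmest signal detected on that array. On the 6 arrays with 1 strain in both tables the changes were -6.28 (adjusted p = 2.13e-05, limma) and -6.39 (adjusted p = 1.98e-05, limma). In the non-normalized signals the 4 DBA arrays read 26.3, 12.5, 15.4 and 9.3, against 2062.2 to 3503.9 in B6, so the gap was there before normalization. Of the other 9 constitutive beta-ring probes only Psmb5 was called between DBA and B6. Whether the DBA sequence under this single probe differs from the probe was not tested, nor was cross-hybridisation with the 2 Psmb6 pseudogenes that RefSeq lists.

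Psmb5 (ILMN_2613469), the chymotrypsin-like subunit, read 10.11, 9.89, 10.06 and 10.10 in B6, 8.45, 8.45, 8.41 and 8.81 in DBA, and 8.69, 8.51, 8.52 and 8.53 in SJL. All B6 arrays lay above all others, and DBA and SJL overlapped. It was 2.85-fold lower in DBA than in B6 (log2 change -1.51 ± 0.09, SE, n = 4 each, adjusted p = 1.13e-07, limma) and 2.79-fold lower in SJL (-1.48 ± 0.09, adjusted p = 1.42e-07, limma). DBA and SJL differed by -0.03, with a 95% interval from -0.24 to 0.17. On the 6 arrays the changes against B6 were -1.63 (adjusted p = 0.000212, limma) in DBA and -1.56 (adjusted p = 0.000249, limma) in SJL. Whether the strains' sequences differ under this single probe was not tested.

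Psmd12 (ILMN_2896805) read 10.44, 10.53, 10.47 and 10.54 in B6, 10.54, 10.51, 10.62 and 10.53 in DBA, and 8.99, 8.86, 8.84 and 9.30 in SJL. Every SJL array lay below every array of the other strains, while B6 and DBA overlapped. Relative to SJL, DBA was 2.93-fold higher (log2 change 1.55 ± 0.09, SE, n = 4 each, adjusted p = 7.29e-08, limma), and SJL was 2.82-fold below B6 (-1.50 ± 0.09, adjusted p = 1.08e-07, limma). On the 6 arrays these were 1.45 (adjusted p = 0.00392, limma) and -1.43 (adjusted p = 0.00406, limma). Psmd12 too was measured by 1 probe, and sequence differences between the strains under it were not tested. Psmd12 was the only 1 of 11 non-ATPase probes called in either comparison, and none of the 6 ATPase probes was.

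**Figure D2:**
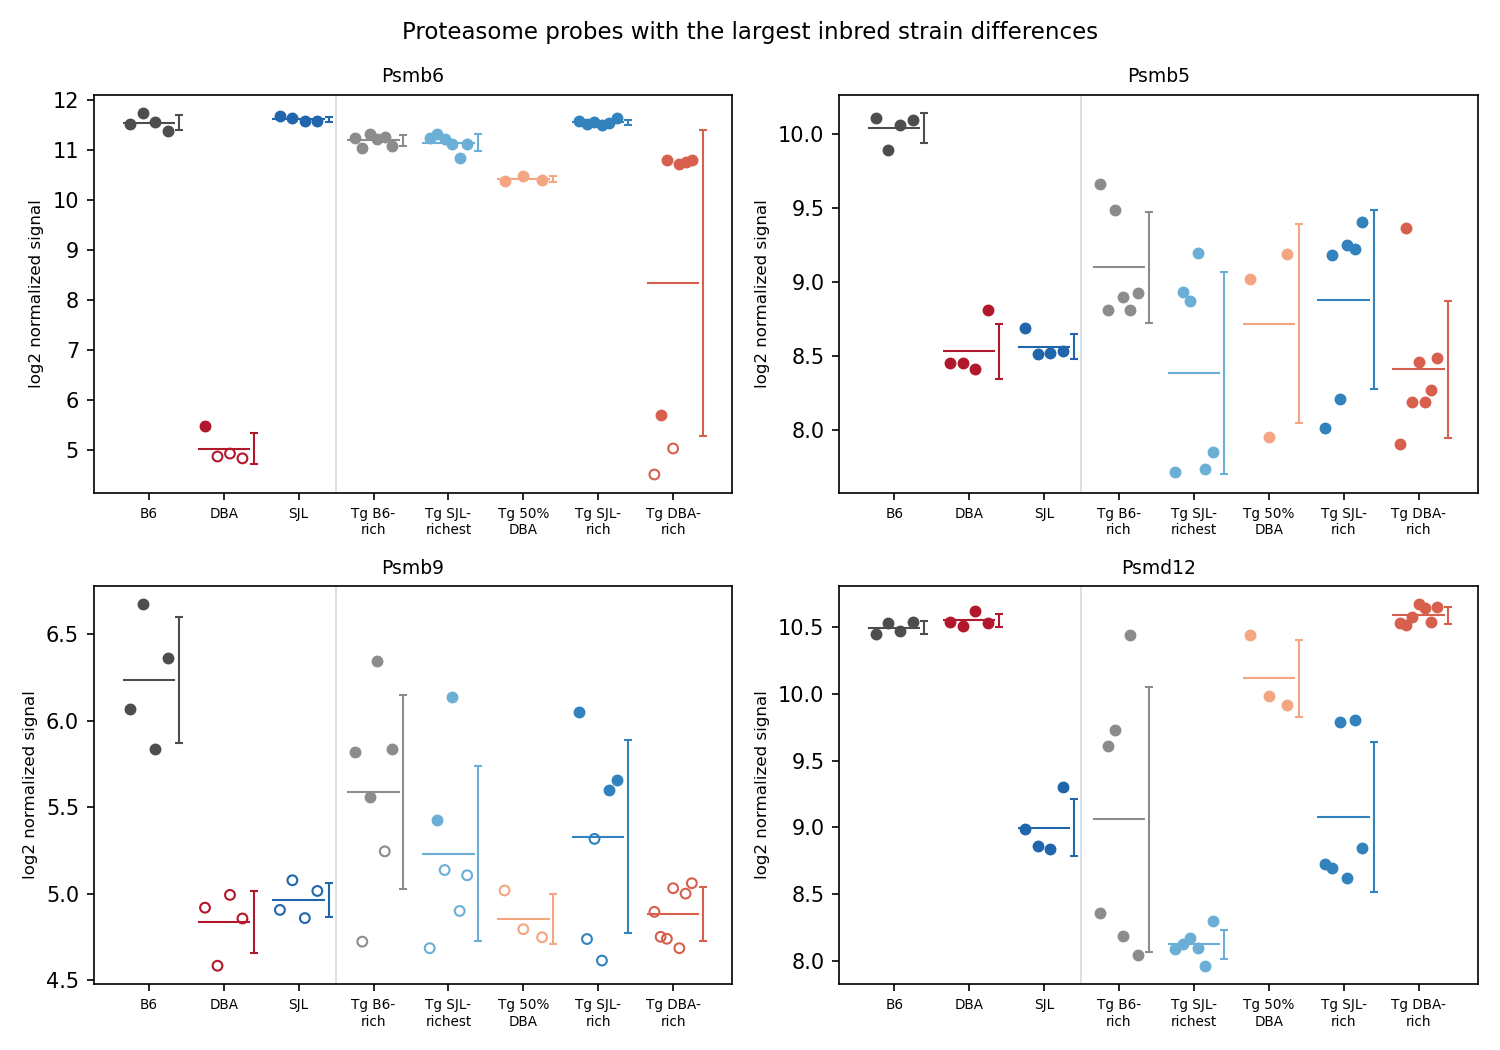
Log2 normalized signal of the proteasome probes with the largest strain differences, 1 point per array in each of the 8 groups. Psmb6 sits at 4.84 to 5.49 in the 4 DBA mice and at 11.36 to 11.73 in B6 and SJL, and the DBA-rich Tg mice split between 4.52 and 10.80.

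The smaller strain differences lay between 0.24 and 0.44 log2 units. Psme4 (ILMN_2947187), which encodes the PA200 activator, read 9.52, 9.70, 9.61 and 9.66 in DBA against 9.98 to 10.19 in B6 and 9.96 to 10.18 in SJL, without overlap. Its log2 change was -0.44 ± 0.07 against B6 (adjusted p = 0.00126, limma) and -0.43 ± 0.07 against SJL (adjusted p = 0.00153, limma), and -0.52 (adjusted p = 0.0441) and -0.36 (adjusted p = 0.124) on the 6 arrays. The second Psme4 probe, ILMN_1230087, was detected on 0 of 4 arrays in each strain and was not called. Psmb1 (ILMN_1239724), a structural beta subunit, read 11.22, 11.36, 11.36 and 11.25 in SJL against 11.56 to 11.66 in B6 and 11.61 to 11.76 in DBA. SJL lay wholly below both strains, with DBA higher than SJL by 0.38 ± 0.06 (adjusted p = 0.0012, limma) and SJL lower than B6 (-0.32 ± 0.06, adjusted p = 0.0042, limma). The Psmb1 changes on the 6 arrays were 0.31 (adjusted p = 0.138, limma) and -0.34 (adjusted p = 0.118, limma). Psmb2 (ILMN_2765890), another structural beta subunit, was lower in SJL than in B6 by a change of -0.31 ± 0.07 (adjusted p = 0.00642, limma), where its other probe changed by -0.07 (adjusted p = 0.554). The Psmb2 change on the 6 arrays was -0.42 (adjusted p = 0.0707, limma).

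Psmg2, which encodes a chaperone that starts the alpha ring, was the gene whose probes were all called alike. ILMN_3074516 read 9.91, 9.88, 9.98 and 9.97 in SJL, 9.56 to 9.66 in B6 and 9.63 to 9.75 in DBA, and ILMN_3153450 read 8.04 to 8.19 in SJL, 7.53 to 7.91 in B6 and 7.51 to 7.84 in DBA. On both probes every SJL array was above every other. SJL exceeded B6 by 0.32 ± 0.06 (adjusted p = 0.00178, limma) and 0.41 ± 0.09 (adjusted p = 0.0107), and DBA was below SJL by changes of -0.24 ± 0.06 (adjusted p = 0.0135) and -0.37 ± 0.09 (adjusted p = 0.0229). On the 6 arrays only ILMN_3153450 in SJL against B6 was called (0.53, adjusted p = 0.029, limma); ILMN_3074516 gave 0.38 there (adjusted p = 0.0939), and in DBA against SJL the probes gave -0.28 (adjusted p = 0.169) and -0.29 (adjusted p = 0.146). The meiotic gene Psmc3ip was lower in SJL than in B6 (-0.40 ± 0.09, adjusted p = 0.00664, limma) and higher in DBA than in SJL (0.37 ± 0.09, adjusted p = 0.0137). Its changes on the 6 arrays were -0.49 (adjusted p = 0.105, limma) and 0.46 (adjusted p = 0.114, limma). No alpha-ring, 19S ATPase or base-chaperone probe was called between any 2 strains. The 6 alpha-ring probes changed by -0.06 to 0.10 between DBA and B6, and the 6 ATPase probes by -0.05 to 0.10.

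Of the 21 member calls among the 3 strain comparisons, 10 were also called on the 6 arrays. The other 11 kept their direction without passing. The 6 arrays are among those that gave the 21 calls, so a kept direction is no independent check. Of these 6, the DBA arrays have running numbers 31 and 32, the B6 arrays 35 and 36 and the SJL arrays 39 and 40. In runs of 8 arrays, inferred from that number, DBA thus stood in another run than B6 and SJL. Strain and run cannot be told apart in the comparisons with DBA on the 6 arrays. Over the 13 genes with more than 1 probe and 8 group comparisons, 104 pairs of a gene and a comparison arose. In 2 all probes were called, both for Psmg2; in 10 only some were; and in 92 none was, 21 of them with changes of both signs, which lay between -0.20 and 0.16. None had probes called in opposite directions.

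Markers of other cell types moved with the strains, and beside any strain difference in this bulk tissue fewer cells of a type and less RNA per cell cannot be told apart. Between DBA and B6, 7 of 7 measured oligodendrocyte markers were lower in DBA (median log2 change -0.61), with summed signals of 45784 to 53507 in B6, 30352 to 39908 in DBA and 31123 to 43731 in SJL. Of 10 microglial markers, 4 were lower in DBA (median -0.17), with summed signals of 3985 to 4963 in B6, 2503 to 3216 in DBA and 2485 to 3316 in SJL. Both sums were highest in B6, as were Psmb5 and Psmb9. The 4 called microglial markers were Tyrobp, C1qa, C1qb and C1qc. Other markers of the list overlapped between the 2 strains: Cx3cr1 read 9.25 to 9.37 in B6 and 9.16 to 9.34 in DBA, and Tmem119 7.41 to 7.72 and 7.33 to 7.83. The part of these cells in the proteasome values was not tested. In the same comparison 1 of 7 astrocyte markers was higher, and 1 of 5 neuronal, 3 of 5 hippocampal field, 0 of 6 choroid plexus and 1 of 4 vessel markers were lower. The summed signal of the 5 neuronal markers was highest in SJL, the strain with low Psmd12 and Psmb1. It was 34510 to 38110 in SJL, 29783 to 30034 in B6 and 26810 to 29702 in DBA, and on this sum the SJL arrays did not overlap the others. The marker that differed most was Slc17a7, with means of 12.94 in SJL, 11.36 in B6 and 10.98 in DBA. The median change of the list was only 0.03 in SJL against B6 and -0.04 in DBA against SJL. Of the 5 markers 1 was called higher in SJL than in B6 and 2 lower in DBA than in SJL. The part of neurons in the proteasome values was not tested.

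Of 32 listed ubiquitin, shuttle and proteasome-regulating genes 16 were measured. Of these 16 genes 2 were called between DBA and B6, 2 between DBA and SJL and 3 between SJL and B6, where 12.3%, 11.2% and 13.5% of all probes were. Between DBA and B6, Rad23b, a shuttle for ubiquitinated proteins, was lower in DBA (-0.31, adjusted p = 0.00809, limma) and the ubiquitin ligase gene Ube3a higher (0.51, adjusted p = 0.00417). Between DBA and SJL, Vcp, which encodes an unfolding ATPase upstream of the proteasome, was higher in DBA (0.52, adjusted p = 0.000188), as was its cofactor gene Nploc4 (0.74, adjusted p = 3.62e-05). Between SJL and B6, 3 of the 16 were lower in SJL, namely Rad23b (-0.42), Vcp (-0.53) and Nploc4 (-0.62), and none was higher.

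The immunoproteasome was compared apart from the constitutive subunits. Psmb9, the catalytic subunit that replaces Psmb6, was above the detection limit in every B6 mouse and in no DBA or SJL mouse, while Psmb10, which replaces Psmb7, was detected in all mice and lower in B6 on 1 of its 2 probes. Psmb8, which replaces Psmb5, was mostly undetected. Psmb9 (ILMN_1242466) read 6.07, 6.67, 5.84 and 6.36 in B6, 4.92, 4.58, 4.99 and 4.86 in DBA, and 4.91, 5.08, 4.86 and 5.02 in SJL. The B6 arrays did not overlap either strain. The log2 change was -1.40 ± 0.15 in DBA against B6 (adjusted p = 3.14e-05, limma), or at least 1.46-fold lower. In SJL it was -1.27 ± 0.15 (adjusted p = 7.67e-05, limma), or at least 1.36-fold lower. On the 6 arrays the changes were -1.35 (adjusted p = 0.0131) and -1.16 (adjusted p = 0.0253). Sequence differences between the strains under the single Psmb9 probe were not tested either.

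Psmb10 probe ILMN_2914843 read 10.45, 10.46, 10.45 and 10.37 in B6, 10.76, 10.50, 10.82 and 10.69 in DBA, and 10.79, 10.70, 10.71 and 10.60 in SJL. B6 lay below both strains without overlap, by 0.26 ± 0.07 against DBA (adjusted p = 0.0392, limma) and 0.27 ± 0.07 against SJL (adjusted p = 0.0313, limma). Against DBA the call was lost in 8 of 16 alternative settings, 7 of them leaving out 1 array, and reversed in 1; against SJL it was lost in 10. These differences on the 6 arrays were 0.22 (adjusted p = 0.354, limma) and 0.25 (adjusted p = 0.347, limma). The other probe, ILMN_2757870, gave differences of the same size, 0.28 (adjusted p = 0.128) and 0.27 (adjusted p = 0.123), that did not pass. Psmb8 (ILMN_2693940) was detected on 7 of 40 arrays: on 0 of 4 B6 arrays, 0 of 4 DBA arrays and 1 of 4 SJL arrays, where it read 5.97, and it was not called between DBA and SJL (adjusted p = 0.0874). The PA28 genes did not differ between strains by this test: the Psme1 probe ILMN_2671204 read 9.70 to 9.81 in B6, 9.54 to 10.05 in DBA and 9.67 to 9.87 in SJL, and Psme2 read 7.98 to 8.09, 8.01 to 8.15 and 7.85 to 8.11. Psme3, which encodes the nuclear PA28 form, ranged from 9.80 to 10.23 over all 40 arrays and was called in no comparison.

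Of 19 listed class I peptide-loading and interferon-response genes 14 were measured. Only the class I gene H2-K1 was called between DBA and B6 and only H2-D1 between SJL and B6. H2-K1 was detected on all 4 DBA arrays and on none of B6 or SJL, and was at least 4.88-fold higher in DBA than in B6 (adjusted p = 1.14e-08, limma). H2-D1 was detected on all 4 SJL arrays and on none of B6 or DBA, and was at least 7.18-fold higher in SJL than in B6. Whether the strains' sequences under these probes differ was not tested. Between DBA and SJL, the peptide transporter gene Tap2 was lower in DBA (-0.62, adjusted p = 0.0123), as was H2-D1 (at least 6.56-fold), and H2-K1 was higher (at least 4.17-fold). The other transporter gene, Tap1, was also called (adjusted p = 0.0226), but was undetected on all 8 arrays, so no fold is given. None of these 14 genes was, like Psmb9, called higher in B6 than in both other strains.

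**Figure D3:**
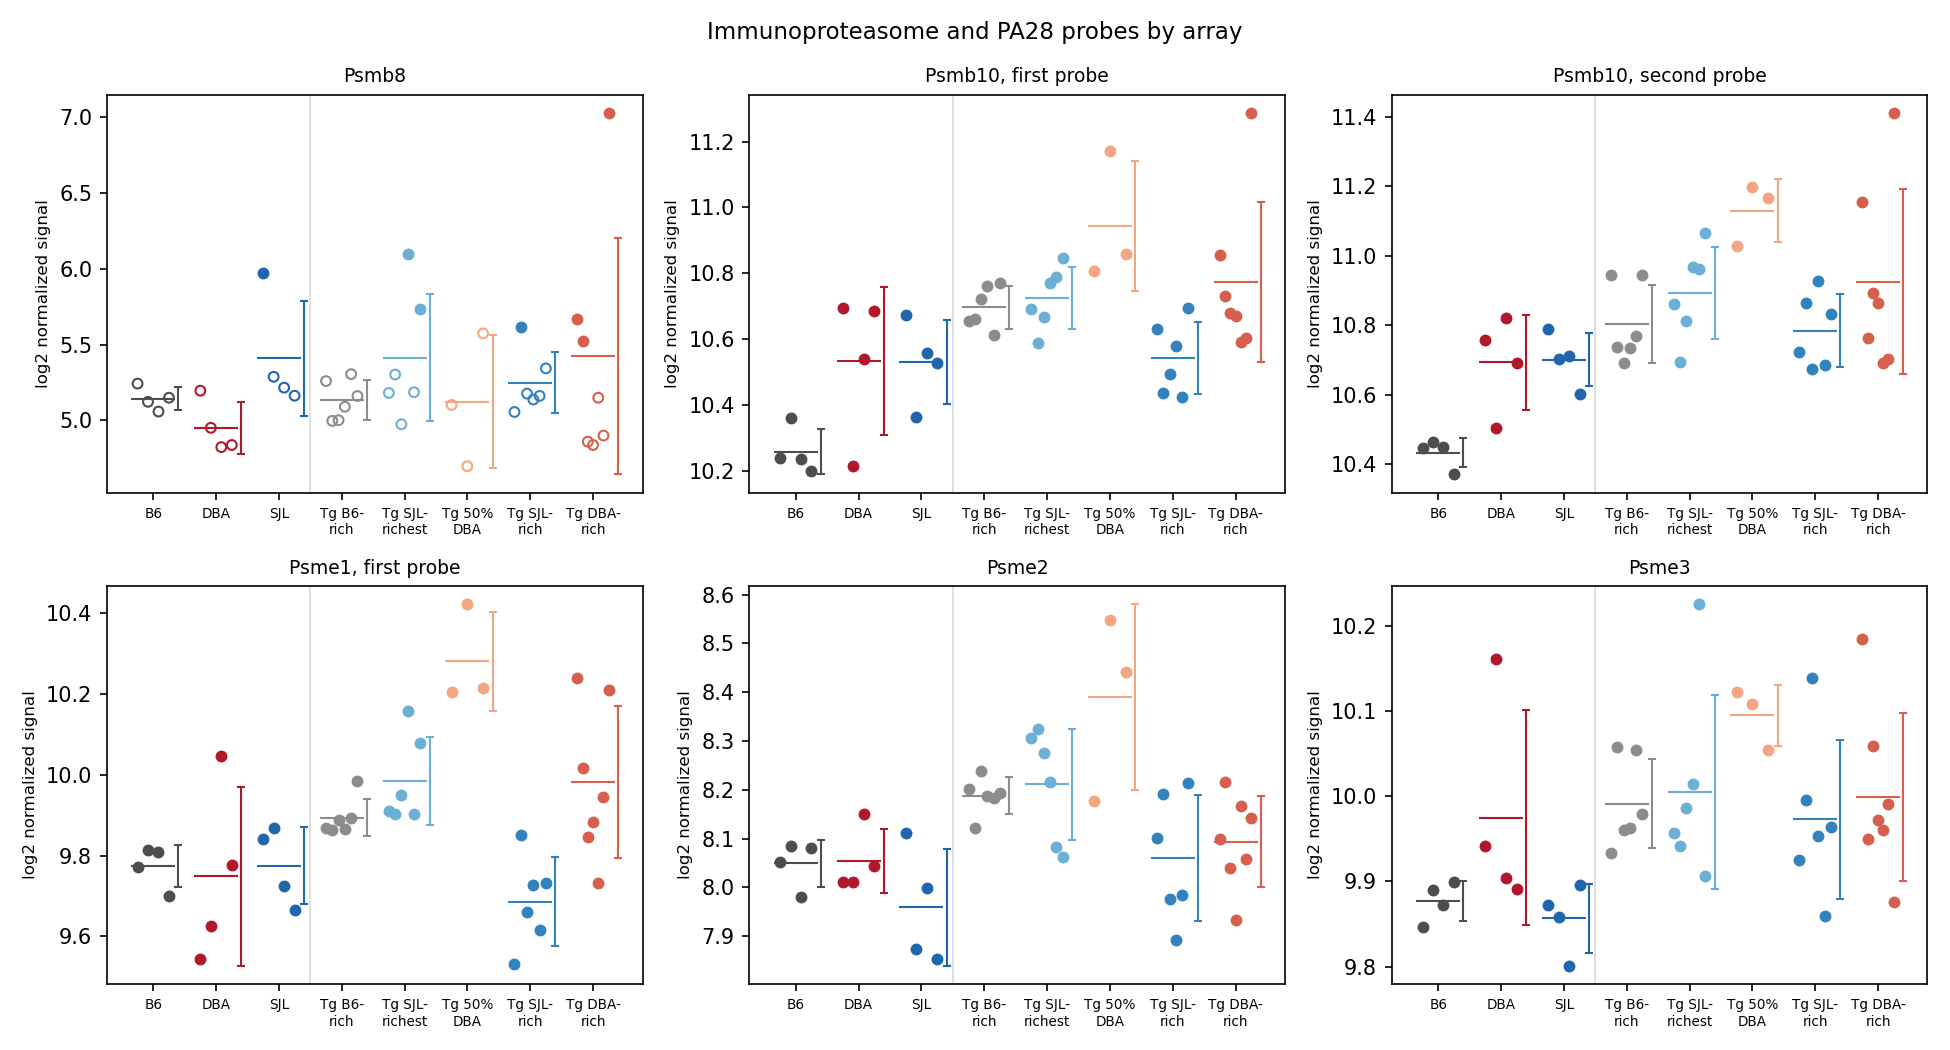
Log2 normalized signal of Psmb8, both Psmb10 probes, the Psme1 probe ILMN_2671204, Psme2 and Psme3 on each of the 40 arrays, by group. Psmb9 is not drawn here. In each of the Psmb8 and Psmb10 panels 1 DBA-rich Tg array is highest, at 7.03 for Psmb8 and at 11.29 and 11.41 for the Psmb10 probes.

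Among Tg mice, comparisons of backgrounds ask whether strain differences recur where the strains are mixed. Psmd12 was lower in SJL-richest than in 50% DBA mice and in SJL-rich than in DBA-rich mice, Psmb1 was lower in SJL-rich than in DBA-rich mice, and Psmb6 was low in some DBA-rich mice and not in others. Between B6-rich and SJL-richest mice 0 of 56 members were called, where 2.44% of all probes were, although 6 members and 2286 of all probes had an unadjusted p under 0.05 (limma). Between 50% DBA and SJL-richest mice 1 member, Psmd12, was called and was higher in the 50% DBA mice (1.79%, against 2.36% of all probes). Between DBA-rich and SJL-rich mice of arrays 17 to 28, 4 members were called, 1 lower and 3 higher in DBA-rich mice (7.14%, against 8.46% of all). The member medians were -0.02, 0.06 and 0.04, against -0.01, 0.00 and 0.00 over all probes. The 28 Tg arrays share 1 estimate of spread per probe.

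Psmb6 read 10.80, 10.72, 10.76 and 10.79 on DBA-rich replicates 3, 5, 6 and 7, and 4.52, 5.70 and 5.04 on replicates 1, 2 and 4. No DBA-rich mouse lay between 5.70 and 10.72, and replicates 1 and 4 were undetected. The 50% DBA mice read 10.38, 10.48 and 10.39, all below the 10.83 to 11.31 of the B6-rich and SJL-richest mice of the same array set, and the SJL-rich mice read 11.49 to 11.63. DBA-rich mice were lower than SJL-rich mice by a log2 change of -2.58 ± 0.72 (SE, n = 6 each, adjusted p = 0.0243, limma), or at least 5.74-fold. The change of 50% DBA against SJL-richest mice was -0.72 ± 0.89 and was not called (adjusted p = 0.73, limma). Both SEs come from 1 spread shared by all Tg arrays, DBA-rich ones included, whose later arrays had an SD of 2.80. The call of DBA-rich against SJL-rich mice thus does not rest on the spread of those groups alone. The non-normalized signals of DBA-rich replicates 1 to 7 were -1.4, 36.3, 1701.2, 17.7, 1443.8, 1721.7 and 1678.4.

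Psmd12 read 8.09, 8.13, 8.17, 8.10, 7.96 and 8.30 in SJL-richest mice, 10.44, 9.98 and 9.92 in 50% DBA mice, and 8.36, 9.61, 9.73, 8.19, 10.44 and 8.05 in B6-rich mice. The SJL-richest and 50% DBA mice did not overlap, while single B6-rich mice spanned nearly the whole interval. It was 3.97-fold higher in 50% DBA than in SJL-richest mice (log2 change 1.99 ± 0.37, SE, adjusted p = 0.00314, limma), and 0.94 ± 0.30 higher in B6-rich mice, which was not called (adjusted p = 0.0983). In the later set the SJL-rich mice read 8.72, 8.69, 9.79, 8.62, 9.80 and 8.85, and the DBA-rich replicates 2 to 7 read 10.52, 10.57, 10.67, 10.64, 10.54 and 10.65. These too were fully apart, with DBA-rich mice 2.87-fold higher (1.52 ± 0.30, adjusted p = 0.00132, limma). DBA-rich replicate 1, of the earlier set, read 10.53, so all 7 DBA-rich mice lay between 10.52 and 10.67.

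Psmb1 was higher in DBA-rich than in SJL-rich mice by 0.30 ± 0.07 (adjusted p = 0.00708, limma), with 11.62 to 11.76 on the 6 later DBA-rich arrays and 11.17 to 11.62 on the SJL-rich arrays, which meet at 11.62. Psme1, a PA28 subunit gene, was higher by 0.25 ± 0.07 on probe ILMN_2671204 (adjusted p = 0.0202, limma) and by 0.12 on the other (adjusted p = 0.455). The called probe read 10.02, 9.85, 9.88, 9.73, 9.95 and 10.21 on DBA-rich replicates 2 to 7 against 9.53 to 9.85 in SJL-rich mice. Without DBA-rich replicate 7 its difference was 0.20 (adjusted p = 0.0618). With runs of 8 arrays as a block, 1 of the 4 calls of this comparison, Psmb1, was left. Psme4 on ILMN_2947187 read 9.56 to 9.95 in DBA-rich mice and 9.79 to 10.32 in SJL-rich mice and was not called.

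Psmb5 was uneven inside every mixed group. The B6-rich mice read 9.66, 8.81, 9.49, 8.90, 8.81 and 8.92, and the SJL-richest mice 7.71, 8.93, 8.87, 9.20, 7.74 and 7.85. Values near 8 and near 9 occurred side by side in SJL-richest mice, and the difference of 0.72 ± 0.30 between the groups was not called (adjusted p = 0.22, limma). The SJL-rich mice read 8.01, 9.18, 8.21, 9.25, 9.22 and 9.41, the 50% DBA mice 9.02, 7.95 and 9.19, and the DBA-rich mice 7.90, 9.37, 8.19, 8.46, 8.19, 8.27 and 8.49. Of the DBA-rich mice only replicate 2 thus exceeded 9. Psmb9 was likewise detected in some mice of a group and not in others: on 4 of 6 B6-rich, 2 of 6 SJL-richest, 3 of 6 SJL-rich, 0 of 3 50% DBA and 0 of 7 DBA-rich arrays. Its highest Tg values were 6.35 in a B6-rich, 6.14 in an SJL-richest and 6.05 in an SJL-rich mouse, and no Tg comparison called it. Psmb8 was detected on 0 of 6, 2 of 6, 1 of 6, 0 of 3 and 3 of 7 arrays of those groups in the same order.

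Of the neighbouring pathway lists, Rad23b was higher in B6-rich than in SJL-richest mice (0.32, adjusted p = 0.0236, limma), as were 2 of 7 oligodendrocyte and 1 of 10 microglial markers. Vcp was higher in 50% DBA than in SJL-richest mice (0.45, adjusted p = 0.0318), with H2-K1, undetected in SJL-richest mice, called from the class I list (at least 2.84-fold higher). Between DBA-rich and SJL-rich mice none of the 16 ubiquitin genes was called, 2 class I genes were lower and 1 higher, and 4 of 7 oligodendrocyte markers were lower (median -0.42), whose part in the proteasome values was not tested.

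Psmb6, Psmb5, Psmd12 and Psmb9 were set beside genes near them on the chromosome. For each, the nearest genes on either side that were called at an adjusted p under 0.001 in both strain comparisons of the member were taken, after the values had been seen and with neighbour order from the GRCm38.p6 gene table. Being chosen for their strain differences, they are a description with no test. Distances given below count only genes with a tested probe, so the number of genes in between can be larger. Near Psmb6 on chromosome 11 these were Dlg4, a postsynaptic scaffold gene, 11 genes before it, Ctdnep1, 14 before, Rnf167, 4 after, and Eno3, 6 after. In DBA against B6 they changed by -1.73, -0.93, -0.69 and -0.87, Eno3 being detected on 1 of 4 DBA arrays. In DBA-rich replicates 1 to 7, Dlg4 read 5.91, 7.83, 9.11, 7.59, 9.00, 9.22 and 9.16. Ctdnep1 read 8.08, 8.29, 9.23, 8.52, 9.26, 9.30 and 9.22. On both genes replicates 1, 2 and 4, the mice with low Psmb6, were the lowest, and Rnf167 at 7.85, 8.59 and 8.78 was lowest on the same mice, while Eno3 was not.

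Near Psmb5 on chromosome 14, the gene 1700123O20Rik, 2 genes after it, was undetected in DBA and SJL, at least 3.29-fold and at least 3.08-fold below B6. It read 4.47, 6.64, 6.44, 6.70, 4.45 and 4.54 in SJL-richest replicates 1 to 6, so that the mice with low Psmb5 (1, 5 and 6) were also low here. In DBA-rich mice it read 4.45, 6.74, 4.42, 4.30, 4.47, 4.38 and 4.42, high on replicate 2, the mouse with the highest Psmb5. Near Psmd12 on chromosome 11, Nol11, 2 genes before it, ran the other way between strains (-0.99 in DBA against SJL and 1.06 in SJL against B6). In B6-rich mice Nol11 read 8.86, 8.38, 8.13, 8.62, 7.65 and 8.91, lowest on replicate 5, where Psmd12 was highest. Near Psmb9 on chromosome 17, Abhd16a, 34 genes after it, was undetected in DBA and SJL, at least 26.4-fold and at least 24.7-fold below B6. In B6-rich replicates 1 to 6 it read 10.56, 9.35, 10.30, 10.47, 9.56 and 10.26, lowest on replicates 2 and 5, where Psmb9 was undetected. In SJL-richest replicates it read 5.56, 9.36, 4.84, 9.52, 9.26 and 9.51, high on replicates 2 and 4, where Psmb9 was detected, but also on 5 and 6, where it was not. The other genes so chosen around Psmb5 were Mettl17, 18 genes before it, Ang, 22 before, and Rec8, 24 after. Mettl17 changed by 1.00 in DBA and 0.99 in SJL against B6, and Ang and Rec8 were lower in both. Ang was detected on 1 of 4 DBA and 0 of 4 SJL arrays and was at least 2.94-fold lower in SJL, and Rec8, detected on 3 of 4 B6 arrays only, was at least 1.44-fold and at least 1.35-fold lower. B3galt4, 9 genes before Psmb9 (at least 1.38-fold and at least 1.29-fold), and Wdr46, 10 before (at least 1.81-fold and at least 1.70-fold), were lower in DBA and SJL than in B6 and undetected in both strains. Ddx39b, 42 genes after Psmb9, changed by 0.46 in DBA and 0.955 in SJL against B6. On the chromosome of Psmd12, Smurf2, 3 genes before it, Exoc7, 59 after, and Nploc4, 98 after, changed by -0.72, 1.67 and 0.74 in DBA against SJL.

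**Figure D4:**
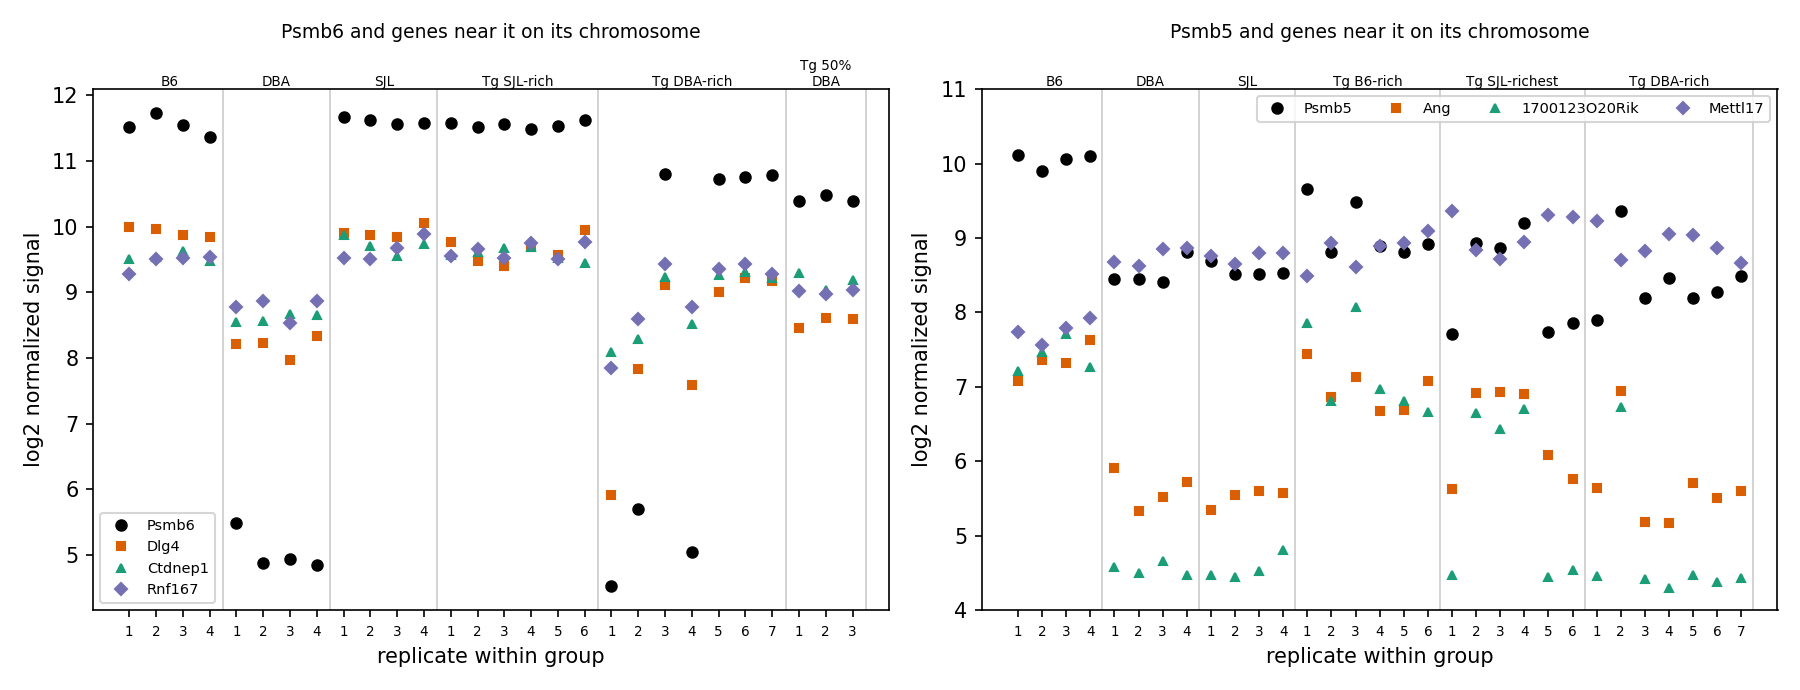
Log2 normalized signal of Psmb6 and of Psmb5 beside nearby genes chosen for their strain differences, 1 point per array, by replicate within each group. In DBA-rich mice Dlg4, Ctdnep1 and Rnf167 are lowest on replicates 1, 2 and 4, where Psmb6 reads 4.52, 5.70 and 5.04, and 1700123O20Rik is high on replicate 2, where Psmb5 reads 9.37.

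Tg mice were compared with inbred mice of the nearest strain within the later array set. In SJL-rich Tg mice several 19S genes differed from inbred SJL by small amounts in both directions, and in DBA-rich Tg mice Psmb6 was higher than in inbred DBA. Between SJL-rich Tg and SJL mice 13 members were called (7 lower and 6 higher in Tg; 23.2%), where 15.8% of all probes were. Between DBA-rich Tg and DBA mice 2 members were called, both higher (3.57%, against 2.6% of all probes). The member medians were 0.02 and 0.05, against 0.01 and -0.01 over all probes. The SJL-rich Tg mice still carry 31% B6, and they and the inbred SJL mice were not in the same run of 8 arrays, so transgene, background and run cannot be told apart. The DBA-rich Tg mice still carry 16% B6 and 9% SJL, so transgene and background cannot be told apart there either.

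Psmd4, a ubiquitin receptor of the 19S regulator, read 12.87, 12.99, 12.92, 12.97, 12.73 and 12.79 in SJL-rich Tg mice against 12.70, 12.54, 12.70 and 12.59 in SJL, without overlap (0.25 ± 0.05, SE, adjusted p = 0.00252, limma). Psmd2 probe ILMN_2682945, for a scaffold of the 19S base, read 6.63, 6.25, 6.07, 6.59, 6.33 and 6.52 against 6.80, 6.74, 7.21 and 7.31 (-0.62 ± 0.15, adjusted p = 0.00417, limma). Psmd11, a lid subunit gene, read 7.41, 7.36, 7.60, 7.26, 7.53 and 7.53 against 7.96, 7.76, 7.85 and 7.90 (-0.42 ± 0.11, adjusted p = 0.0067, limma). All 3 separated the groups fully and kept their call in all 10 alternative settings, none of which took runs of arrays as a block. Psmd2 on ILMN_2682945 also varied inside the inbred strains. It read 6.51 to 6.84 on replicates 1 and 2 of B6, DBA and SJL and 7.01 to 7.31 on replicates 3 and 4. The second Psmd2 probe, ILMN_2682947, changed by -0.28 and was not called (adjusted p = 0.226).

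The other lower members were Psmg2 on ILMN_3153450 (-0.37, adjusted p = 0.0209, limma), the alpha-ring gene Psma3 (-0.25), the base scaffold gene Psmd1 (-0.22), the lid gene Psmd8 (-0.18) and the trypsin-like subunit gene Psmb7 on ILMN_1221340 (-0.17, adjusted p = 0.0317). The second Psmg2 probe changed by -0.07 (adjusted p = 0.530), and the other Psmb7 probes by -0.18 (adjusted p = 0.0608) and -0.13 (adjusted p = 0.253). The other higher members were Psme4 on ILMN_1230087 (adjusted p = 0.0198), the base chaperone gene Psmd5 (0.25), the 20S chaperone gene Psmg3 (0.24), Psmc3ip (0.22) and the ATPase gene Psmc4 (0.14). The Psme4 probe was detected on 0 of 4 SJL and 5 of 6 Tg arrays, so close to the limit that its bound is below 1 and no fold is given, and the brighter Psme4 probe changed by -0.05 (adjusted p = 0.748). Leaving out 1 SJL array left 4 to 9 calls, with 4 on leaving out replicate 1 and 7 on leaving out replicate 4, and 4 calls were left with the 2 SJL arrays of 1 strain in both tables. From the ubiquitin list Usp14, a deubiquitinase of the proteasome, was lower (-0.49, adjusted p = 0.0114), and Vcp (0.38) and the autophagy receptor gene Sqstm1 (0.23) were higher; of the microglial markers Ctss was lower (at least 1.39-fold, undetected in Tg) and Trem2 higher (0.64).

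In DBA-rich Tg mice Psmb6 exceeded inbred DBA by a log2 change of 3.93 ± 0.70 (SE, n = 6 and 4, adjusted p = 0.000903, limma), or at least 9.58-fold on group means. The 6 Tg values were the 4 near 10.8 and the 2 at 5.70 and 5.04 given above, so that replicates 2 and 4 lay near the inbred DBA range of 4.84 to 5.49. With only the 2 DBA arrays of 1 strain in both tables the change was 3.79 (adjusted p = 0.0545). Psmc4 was higher by 0.16 ± 0.05 (adjusted p = 0.0484), a call lost in 8 of 11 alternative settings. Psmb6 was not called for the difference between the 2 Tg against inbred changes (3.99 ± 0.99, adjusted p = 0.0641, limma), nor was any other of the 56 members, where 0.309% of all probes were; 7 members and 1593 of all probes had an unadjusted p under 0.05. No ubiquitin-list, oligodendrocyte or microglial marker gene was called between DBA-rich Tg and DBA mice.

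The level of Abeta40 was taken as a continuous term within background and array set in the 28 Tg mice. This asks whether proteasome transcripts track amyloid among mice of like background. DBA-rich replicate 1, alone of its background in the earlier set, had its own mean and so added nothing to the slope. None of the 56 members was called (limma), as of all probes 0% were, and 3 members and 604 of all probes had an unadjusted p under 0.05. Psmd12 had a slope of 0.84 ± 0.34 log2 units per log10 unit of Abeta40 (SE, unadjusted p = 0.0204, adjusted p = 0.9996), the alpha-ring gene Psma4 one of -0.17 ± 0.07 (unadjusted p = 0.0236) and the Psmd9 probe ILMN_2594811 one of 0.33 ± 0.15 (unadjusted p = 0.0443). The catalytic immunoproteasome probes had slopes of -0.27 (Psmb8), -0.17 (Psmb9), -0.21 and -0.18 (Psmb10), with SEs of 0.33, 0.31, 0.11 and 0.11. Without the background means 0 members were called as well, against 205 of all probes.

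The 2 array sets stood wholly apart at some members. Psmd14, the deubiquitinase of the 19S lid, read 5.89 to 6.99 on the 16 earlier arrays and 7.88 to 8.66 on the 24 later ones, a difference of means of 1.70. Psma3 read 10.93 to 11.48 and 11.76 to 12.22, a difference of 0.85. Neither gene's sets overlapped. The sets share only the DBA-rich group, of which replicate 1 was in the earlier set: there Psmd14 read 6.35 on replicate 1 and 7.88 to 8.38 on replicates 2 to 7, and Psma3 read 10.93 and 11.87 to 12.13. The gap was thus also seen within 1 background, with a single early array and no test. Probes of 1 gene did not always shift alike: Psmg2 differed by 1.13 on ILMN_3153450 and by -0.41 on ILMN_3074516, and Psmd10 by 0.95 on ILMN_2694080 and by 0.16 and -0.09 on its other probes.

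**Figure D5:**
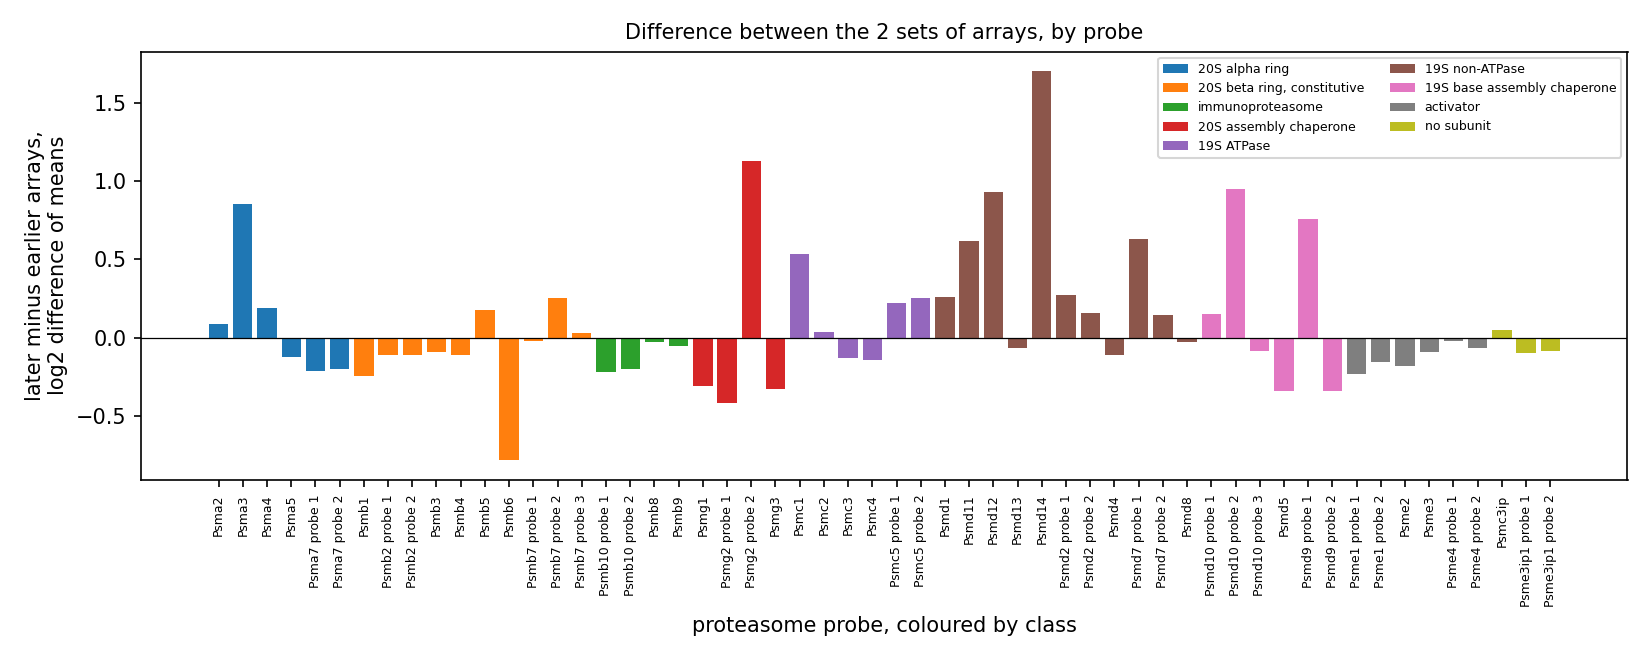
Mean log2 normalized signal of the 24 later arrays minus that of the 16 earlier arrays for each of the 56 proteasome probes, coloured by class. Psmd14 has the tallest bar at 1.70 and Psmb6 the most negative at -0.78, and the sets share only the DBA-rich group.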

How the data were processed

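Hippocampal total RNA was labelled with biotin and read on 40 Illumina Ref-8 arrays of 1 colour. Per the file headers, the deposited non-normalized table gives each probe's signal intensity and a detection p-value per array; the latter approaches 1 for bright probes and was taken as 1 - p. A second table deposited by the authors holds signal intensity named by accession, whose scaling the sources used here do not state. Of its 40 columns 8 match another number of the first table, 6 of them of another strain, all inbred. The first table was the main source and the second an alternative. Nor do they state the software that made the intensities.

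Signals were normalized together with neqc of limma 3.58.1 (R 4.3.3, statmod 1.5.0), which subtracts background from the detection p-values, adds an offset of 16, normalizes by quantiles and takes log2. Probes detected (p of 0.01 or less) on 4 or more arrays, 13589 in all, were tested with lmFit and eBayes and Benjamini-Hochberg adjustment at 0.05: 3 strains in 1 fit of 12 arrays, Tg groups within array sets, and Tg against inbred mice in a fit of all 40. Replicates are separate mice, and the number of arrays limits the precision. Named were all called members, every immunoproteasome and PA28 gene, probes of a gene that differed in call, and the brightest and dimmest probe of a class. The gene lists (ubiquitin, class I and interferon, and cell type markers) take each gene's brightest tested probe. The members and lists were chosen with earlier results of these data known. Symbols came from the platform annotation, and promoters from RefSeq (GRCm38.p6). The code was tested on simulated data. Alternatives covered the source table, background correction, filters, variances, runs of 8 arrays inferred from the running number, separate normalization and leaving out arrays.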

Additional observations from a re-analysis of the deposited data

Results flagged for a closer look

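In groups of 4 to 7 mice, single arrays that stood far from the rest of their group were looked for at 14 proteasome probes. Of 98 pairs of a probe and a group 12 had such an array, where chance gives about 1 in 20 for independent normal values. Psmb5 and Psmb6 were split inside mixed groups and the DBA-rich group spans both array sets, so that share is only a rough guide. Psmb6 read 5.49 in DBA replicate 1, with the nearest DBA array at 4.94. Psmb5 read 8.81 in DBA replicate 4 (nearest 8.45), 8.69 in SJL replicate 1 (nearest 8.53) and 9.37 in DBA-rich Tg replicate 2 (nearest 8.49). Psmb1 read 11.50 in SJL-richest replicate 3 (nearest 11.75) and 11.96 in DBA-rich replicate 1 (nearest 11.76), the DBA-rich array of the earlier set. The Psmb2 probe ILMN_2765890 read 11.81 in B6-rich replicate 3 (nearest 12.13).

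Among immunoproteasome and activator probes, Psmb8 read 5.97 in SJL replicate 1 (nearest 5.29) and 7.03 in DBA-rich replicate 7 (nearest 5.67). Psmb10 on ILMN_2757870 read 11.29 in DBA-rich replicate 7 (nearest 10.86). The Psme1 probe ILMN_2671204 read 9.98 in B6-rich replicate 6 (nearest 9.89), and Psme3 read 10.23 in SJL-richest replicate 5 (nearest 10.01).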

How the results depend on the processing

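Over the 41 member calls, 523 alternative values were computed; 419 kept direction and call, 99 kept direction without passing and 5 reversed. With the authors' value table, which differs in the strains of 6 inbred arrays and in its scaling, 0 members were called in DBA against B6, DBA against SJL, SJL against B6 and DBA-rich Tg against DBA, and 1 for the difference of the Tg changes. All 5 reversals came with that table: Psmb9 (0.11) and Psmb10 on ILMN_2914843 (-0.035) in DBA against B6, Psmb6 in DBA against SJL (0.28), and Psmb1 (0.055) and Psmd12 (0.11) in SJL against B6; Psmb6 in DBA against B6 was -3.46 there (adjusted p = 0.478, limma). With probes detected on all 40 arrays, which leaves out Psmb6 and Psmb9, 3 members were called in DBA against B6 and 1 in DBA-rich Tg against DBA; without a filter the latter was 1. Trend and robust variances gave 2 for 50% DBA against SJL-richest mice, and runs as a block gave 1 for DBA-rich against SJL-rich mice. The 6 inbred arrays of 1 strain in both tables were an alternative chosen after seeing the data. With these, counts were 2 (DBA against SJL), 4 (SJL against B6), 4 (SJL-rich Tg against SJL) and 0 (DBA-rich Tg against DBA). Of these arrays, those of DBA were in another inferred run than those of B6 and SJL. Leaving out in turn each array of the inbred and 50% DBA groups, which have 3 or 4, gave 4 to 6 calls for DBA against B6, 6 to 7 for DBA against SJL, 8 to 9 for SJL against B6, 1 for 50% DBA against SJL-richest mice, 4 to 9 for SJL-rich Tg against SJL and 1 to 2 for DBA-rich Tg against DBA; without DBA-rich replicate 7, also chosen after seeing the data, DBA-rich against SJL-rich mice gave 3. The cause of these moves was not tested beyond the probes and arrays each setting drops. Signals near the detection limit, as for Psmb8, Psmb9 and Psmb6 in DBA, give bounds only. No paired analysis was possible because the labels give each array only its own running number, and the replicate numbers used here name arrays and pair nothing.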

Other observations

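DBA-rich Tg replicate 7 had the highest value of all 40 arrays for 11 of 14 measured class I and interferon-response probes (78.6%), for 4 of 7 immunoproteasome and PA28 alpha and beta probes (57.1%), for 6 of 56 proteasome probes (10.7%) and for 1.71% of all tested probes. Gbp2, an interferon-induced GTPase gene, read 11.38 there and at most 8.95 on the other 39 arrays. The transporter gene Tap1 read 7.34 (at most 6.10 elsewhere), B2m, the class I light chain gene, 12.79 (12.11), Irf1, an interferon-response transcription factor gene, 10.55 (9.28) and Ifit3 10.40 (9.35). Psmb8 read 7.03 (at most 6.10 elsewhere) and Psmb10 on ILMN_2914843 11.41 (11.20), whereas Psmb9 was undetected at 5.06 on that array and at most 6.67 elsewhere. Tapbp, H2-D1 and Stat2 were not highest there, at 6.66, 5.47 and 6.51. These values describe 1 mouse and were not tested.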
